A study of Drosophila melanogaster with 6 samples.

Results

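Dichaete (D), grain (grn), fussel (fuss) and Fer1 are 4 transcription factor genes of Drosophila melanogaster that stood lower in proboscises homozygous for the poxn70 allele. They are 4 of 11982 genes with a probe set of their own on the array, found by symbol, and each was read through its brightest probe set, judged by the mean of all 6 arrays. They were picked because of their decrease in these same arrays, so their differences are given as a description and carry no test. The study compared taste tissue, the dissected proboscis at the tip of the head, from males that were poxn70 homozygous mutant or poxn70 heterozygous mutant, with 3 biological replicates on 1 array each in either genotype. The heterozygotes carry the allele on 1 chromosome, so no group was free of it. Males were 8 to 18 days past eclosion, and each array pooled 164 to 280 whole proboscises, dissected in several batches, so the values mix neurons, support cells, epidermis, muscle, glia and blood cells.

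The gene mutated here, Pox neuro (Poxn), makes a paired-domain protein that steers sense organs towards a chemosensory fate, and in its absence taste bristles turn into touch bristles. A taste bristle houses several taste neurons and a single mechanosensory neuron, wrapped by support cells, and transcription factors that stay on in these adult cells help to keep their identity. D is a SoxB protein with an HMG box, known from segmentation and the embryonic nervous system. grn is a GATA zinc-finger factor, known from motor axon guidance and the shaping of adult legs. fuss belongs to the Ski/Sno family of transcriptional co-repressors and is known in the fly from bitter taste neurons, where it is needed for their function. Fer1 is a basic helix-loop-helix (bHLH) factor related to mammalian Ptf1a, a factor of the pancreas and of inhibitory neurons.

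All values are log2 GCRMA values, on which a step of 1 is a doubling, and values under 3 were treated as background. Differences are homozygous minus heterozygous, means are given with the SD over 3 arrays, and the number of arrays limits the precision. Poxn itself lay under 3 on all 6 arrays, with 2.46 ± 0.16 in homozygotes and 2.34 ± 0.04 in heterozygotes (limma adjusted p = 0.611), so it gave no check of the genotype labels. Homozygous replicate 1 stood apart, with a mean correlation over probe sets of 0.972 with the other homozygous arrays, against 0.982 to 0.983 for homozygous replicates 2 and 3 and 0.991 to 0.994 among heterozygous arrays.

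The measured difference was largest for D. Its values were 3.91, 3.03 and 2.79 in homozygous replicates 1, 2 and 3, against 8.56, 8.43 and 8.25 in heterozygous replicates 1, 2 and 3. The heterozygous arrays lay within 0.3 of each other and well above background, whereas homozygous replicate 3 lay under the limit and replicate 2 just above it. The means were 3.24 ± 0.59 in homozygotes and 8.41 ± 0.15 in heterozygotes, a difference of -5.17 or 36.0-fold lower, and -5.10 with values under the limit set to it. The genotypes were separated by a gap of 4.34 between the highest homozygous and the lowest heterozygous array. Without homozygous replicate 1, the array with the highest homozygous value, the difference was -5.50.

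grn kept a signal above background in both genotypes. Its values were 5.59, 6.10 and 6.52 in homozygous replicates 1, 2 and 3, against 10.14, 10.35 and 10.75 in heterozygous replicates 1, 2 and 3. In both genotypes replicate 1 was the lowest and replicate 3 the highest, and the groups did not overlap. The means were 6.07 ± 0.47 in homozygotes and 10.42 ± 0.31 in heterozygotes, a difference of -4.35 or 20.3-fold lower. Between same-numbered arrays the differences were -4.55, -4.25 and -4.23 for numbers 1, 2 and 3. Their range of 0.32 was smaller than the range of 0.93 among homozygous arrays and of 0.61 among heterozygous arrays. This held for grn alone. For D, fuss and Fer1 the range of such differences was 0.82, 0.94 and 0.81, not smaller than both group ranges. D also had the same order of arrays in both genotypes, with replicate 1 the highest, whereas fuss and Fer1 did not.

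fuss had no homozygous value above background. Its values were 2.74, 2.42 and 2.91 in homozygous replicates 1, 2 and 3, against 6.70, 5.71 and 5.92 in heterozygous replicates 1, 2 and 3. Heterozygous replicate 1 was the highest array, and the groups did not overlap. The means were 2.69 ± 0.25 in homozygotes and 6.11 ± 0.52 in heterozygotes. Since all 3 homozygous values lay under the limit, the change is a bound, and fuss was at least 8.63-fold lower, taken from the heterozygous mean against 3. The measured difference was -3.42, and -3.15 without both arrays numbered 1.

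Fer1 was read by 3 probe sets that did not give the same difference. The brightest of those that match Fer1 alone gave 3.25, 2.66 and 3.40 in homozygous replicates 1, 2 and 3, against 6.85, 6.49 and 6.42 in heterozygous replicates 1, 2 and 3. Homozygous replicate 2 lay under the limit and the others just above it, and the groups did not overlap. The means were 3.11 ± 0.39 in homozygotes and 6.59 ± 0.23 in heterozygotes, a difference of -3.48 or 11.2-fold lower.

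The other probe set for Fer1 alone was close to background throughout, at 2.88, 2.55 and 2.95 in homozygous replicates 1, 2 and 3, against 3.09, 3.46 and 3.89 in heterozygous replicates 1, 2 and 3. Its direction was the same and its groups did not overlap, but the difference was -0.69, or at least 1.40-fold lower. The last probe set matches both Fer1 and Jhbp16, so its signal cannot be given to either gene. It averaged 6.49 ± 0.24 in homozygotes and 6.25 ± 0.17 in heterozygotes (SD, n = 3 each), a difference of 0.24 with groups that overlapped. The size of the decrease given for Fer1 therefore rests on a single probe set.

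**Figure D1:**
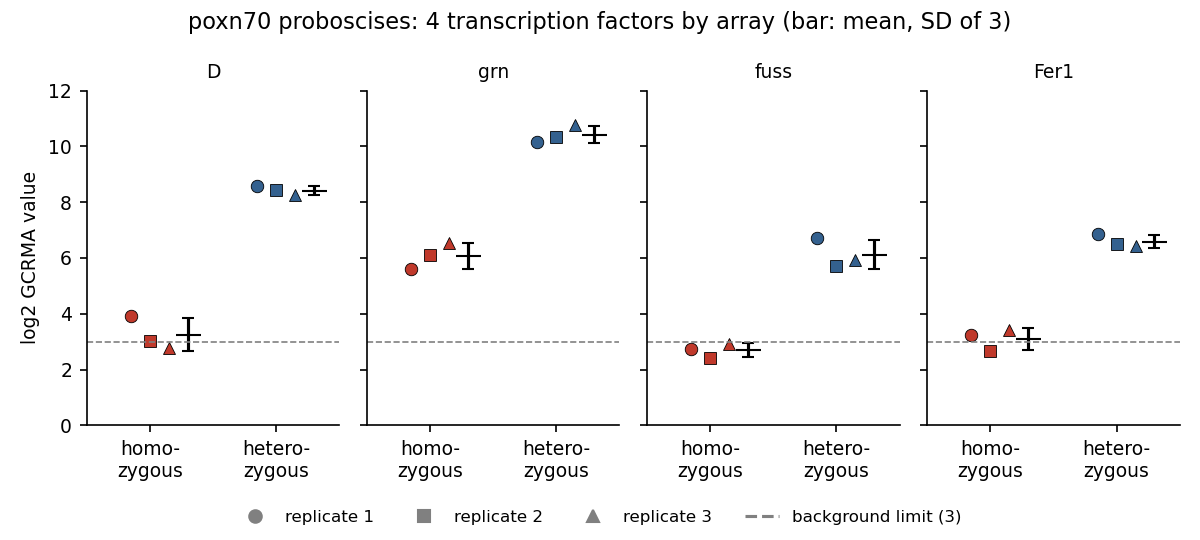
Log2 GCRMA value (y axis) of D, grn, fuss and Fer1 on each array, homozygous left and heterozygous right, with marker shapes for replicate numbers, a bar for the mean ± SD of 3 arrays and a dashed line at the background limit of 3. grn sits above the line in both genotypes, while all 3 homozygous fuss values lie under it.

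**Figure D2:**
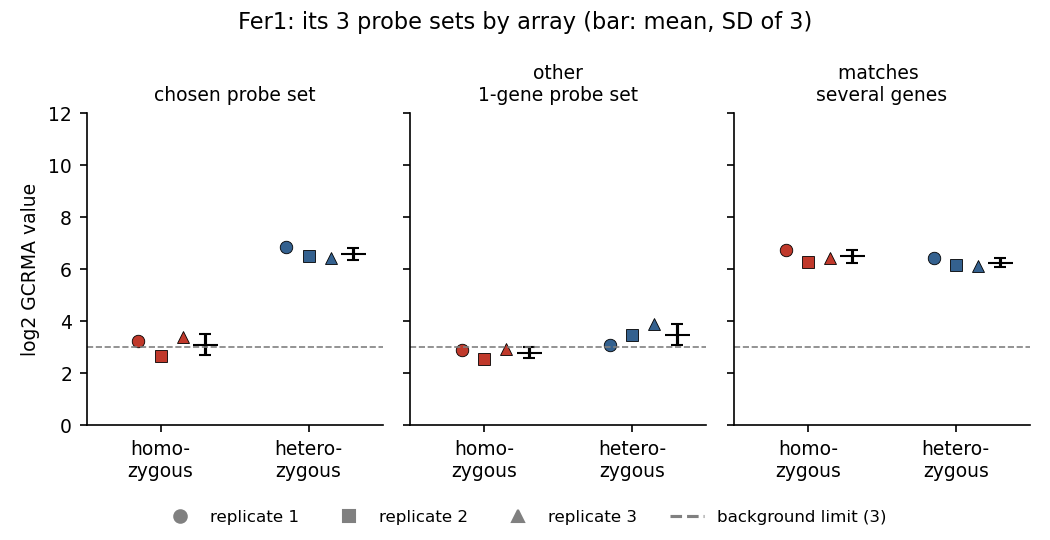
Log2 GCRMA value (y axis) of the 3 Fer1 probe sets on each array, homozygous left and heterozygous right, with marker shapes for replicate numbers, a bar for the mean ± SD of 3 arrays and a dashed line at 3. The chosen probe set differs by -3.48, the other one for Fer1 alone by -0.69, and the one shared with Jhbp16 by 0.24.

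Among the 4 genes the spread between arrays did not follow 1 array. D was highest in homozygous replicate 1, grn was highest in homozygous replicate 3, and fuss and Fer1 were lowest in homozygous replicate 2 and highest in homozygous replicate 3. Ranked over all 11982 genes from the most negative difference, D came 16th, grn 24th, Fer1 40th and fuss 42nd, a description of how they were picked. For comparison, 5.83% of all genes were lower in homozygotes without overlap and 16.3% were higher without overlap, and all 4 genes were lower without overlap, as their selection made likely. The share higher without overlap includes genes under the limit on all 6 arrays, such as Poxn. It is therefore no measure of how many genes rose.

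The relatives of these factors gave no calls, which is close to the share over all genes. The list held 7 other Sox genes, 4 other GATA genes, the Ski/Sno gene Snoo and the bHLH genes Fer2 and Fer3, and all 14 were on the array. By limma with Benjamini-Hochberg adjustment 0 of the 14 were called lower and 0 higher, against 0.442% of all genes called lower and 0.0751% called higher. In this fit without a block 0 of the 14 had an unadjusted p under 0.05, against 3.86% of all genes lower and 4.84% higher. Over probe sets the shares called were 0.314% lower and 0.0586% higher. Blocking on the replicate number, limma called 0 genes in either direction, with 4.24% of genes lower and 9.36% higher at an unadjusted p under 0.05. The median difference of the 14 was 0.01, against 0.00 over all genes. In 8 of the 14 at least 1 genotype had a mean of 3 or more, and for the other 6 both means lay within background.

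Of the relatives, srp, a GATA factor of blood cells and fat body, had the smallest unadjusted p. It was at 8.56, 8.47 and 8.15 in homozygous replicates 1, 2 and 3, against 7.51, 8.07 and 8.27 in heterozygous replicates 1, 2 and 3, with groups that overlapped (difference 0.44, limma adjusted p = 0.611). GATAd was at 9.34 ± 0.39 in homozygotes and 9.66 ± 0.16 in heterozygotes, and Fer2 lay under the limit on all arrays. SoxN, the SoxB relative of D in the embryonic nervous system, and pnr, a GATA factor of the dorsal thorax, were picked with their values in view. SoxN was at 6.04 ± 0.86 in homozygotes and 6.69 ± 0.56 in heterozygotes (difference -0.65, limma adjusted p = 0.611). pnr was at 9.47 ± 0.06 in homozygotes and 9.45 ± 0.18 in heterozygotes (difference 0.03, limma adjusted p = 0.902). Snoo, the sole relative of fuss on the list, likewise picked, was at 7.93 ± 0.32 in homozygotes and 7.88 ± 0.17 in heterozygotes, with groups that overlapped.

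**Figure D3:**
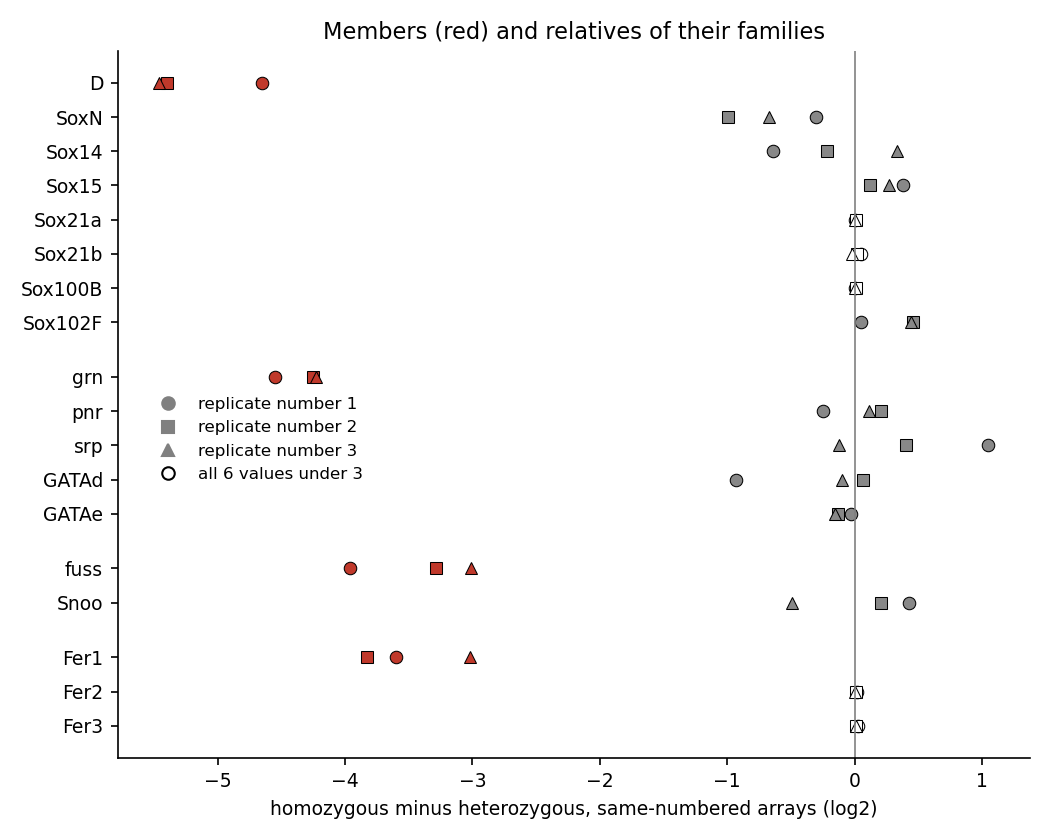
Difference between same-numbered arrays, homozygous minus heterozygous on the log2 scale (x axis), for each of the 4 genes (red) and the relatives of its family (grey, or white where all 6 values lie under 3), with marker shapes for replicate numbers. The 4 genes lie between -5.46 and -3.01. The relatives lie on both sides of 0, with differences of group means from -0.65 (SoxN) to 0.44 (srp) and a wider spread between single arrays.

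Genes that work with these factors were read through 5 further lists. None of their 71 genes on the array was called, which is close to the share over all genes (0.442% lower and 0.0751% higher) and says nothing particular about them. D acts with POU-domain factors and with genes that pattern the neural columns. Of 7 such partners 5 were on the array, 0 were called by limma in either direction, 1 was lower at an unadjusted p under 0.05, and the median difference was 0.00. That gene was nub, a POU-domain factor, at 6.73, 6.17 and 5.55 in homozygous replicates 1, 2 and 3, against 8.60, 7.89 and 8.36 in heterozygous replicates 1, 2 and 3. Its groups did not overlap, and its difference of -2.13, or 4.39-fold lower, missed the threshold (limma adjusted p = 0.175, and 0.0416 to 0.576 over the alternatives). Dr, a homeobox gene of the neural columns, was at 4.66 ± 0.69 in homozygotes and 5.65 ± 0.12 in heterozygotes (limma adjusted p = 0.611), and ind lay under the limit on all arrays. vvl, the POU factor that acts together with D in the embryonic midline and was picked with its values in view, was at 8.72 ± 0.11 in homozygotes and 8.68 ± 0.49 in heterozygotes.

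The list of bHLH factors, which Fer1 belongs to by structure, held the proneural genes and their partners. Of 13 on the array 4 had a genotype mean of 3 or more, 0 were called by limma in either direction, 2 were lower and 1 higher at an unadjusted p under 0.05, and the median difference was 0.00. tap, whose name stands for target of Pox-n and which is known from chemosensory organs, had values of 2.10, 2.04 and 1.99 in homozygous replicates 1, 2 and 3, against 6.34, 4.57 and 4.81 in heterozygous replicates 1, 2 and 3. All 3 homozygous values lay under the limit, and every heterozygous array lay above it. tap was at least 4.72-fold lower, and it missed the threshold over all tests (limma adjusted p = 0.129, and 0.0141 to 0.410 over the alternatives). It was called lower without heterozygous replicate 1, the array with its highest value (limma adjusted p = 0.0141, difference -2.64).

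emc, an inhibitor of proneural proteins, was at 12.47 ± 0.11 in homozygotes and 12.84 ± 0.08 in heterozygotes (limma adjusted p = 0.477). ase, a proneural gene of dividing precursors, lay under the limit on all arrays, as did the proneural genes ac, sc, ato and amos, which were picked with their values in view. The gene of this list counted as higher was ase, with means of 2.43 in homozygotes and 2.41 in heterozygotes. That count therefore rests on values within background.

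Ski/Sno proteins act on Smad signalling, and the list of the bone morphogenetic protein (BMP) and activin pathways had 17 of 18 genes on the array. By limma 0 were called in either direction, 3 were lower and 1 higher at an unadjusted p under 0.05, and the median difference was 0.00. daw, an activin-like ligand, was at 7.68, 7.39 and 7.03 in homozygous replicates 1, 2 and 3, against 8.20, 8.40 and 8.32 in heterozygous replicates 1, 2 and 3 (difference -0.94, limma adjusted p = 0.276). wit, a type II receptor of BMP signals, was at 9.93 ± 0.32 in homozygotes and 10.57 ± 0.09 in heterozygotes (limma adjusted p = 0.502). Mad, the Smad of the BMP branch, was at 9.20 ± 0.25 in homozygotes and 8.77 ± 0.07 in heterozygotes (limma adjusted p = 0.611). These 3 genes had groups without overlap, daw and wit lower and Mad higher, and did not pass the test. Actbeta, named to complete the count of lower genes, was at 7.73 ± 0.71 in homozygotes and 8.71 ± 0.13 in heterozygotes. Its groups did not overlap either (difference -0.98, limma adjusted p = 0.611).

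fuss is known to act with the histone deacetylase HDAC1 (Rpd3) in bitter taste neurons. Of 5 genes of the Rpd3 and Sin3A complex 4 were on the array, 0 were called by limma, 0 were lower and 1 higher at an unadjusted p under 0.05, and the median difference was 0.08. Sap130, a subunit of this complex, was at 8.42 ± 0.19 in homozygotes and 7.94 ± 0.12 in heterozygotes (limma adjusted p = 0.547). Sap30, another subunit, was at 9.39 ± 0.44 in homozygotes and 9.32 ± 0.28 in heterozygotes. Nurf55, a histone-binding subunit named here by a synonym of the gene table, was at 3.45 in homozygous replicate 1, against 6.99 and 7.25 in homozygous replicates 2 and 3 and 6.55, 7.23 and 6.45 in heterozygous replicates 1, 2 and 3. Its low mean in homozygotes therefore came from the array that stood apart.

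The widest list held 35 other neural and patterning transcription factors, 32 of them on the array and 19 with a genotype mean of 3 or more. By limma 0 were called in either direction, 6 were lower and 0 higher at an unadjusted p under 0.05, and the median difference was 0.00. ss (spineless), a bHLH-PAS factor that sets antennal identity and bristle size, was at 8.28, 7.35 and 7.64 in homozygous replicates 1, 2 and 3, against 10.00, 9.51 and 9.67 in heterozygous replicates 1, 2 and 3. Its groups did not overlap, and its difference of -1.97, or 3.92-fold lower, missed the threshold (limma adjusted p = 0.106, and 0.0224 to 0.411 over the alternatives).

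Lim3, a LIM-homeodomain factor of motor neurons, was at 3.45 ± 0.67 in homozygotes and 4.86 ± 0.20 in heterozygotes (limma adjusted p = 0.439). ct (cut), which gives external sense organs their identity, was at 7.40 ± 0.05 in homozygotes and 7.73 ± 0.08 in heterozygotes (limma adjusted p = 0.611). Over the 6 lists together, 85 of 93 genes were on the array and 0 were called. At an unadjusted p under 0.05, 12 were lower and 3 higher, against 463 (3.86%) lower and 580 (4.84%) higher of all 11982 genes. Without overlap 16 were lower and 11 higher, against 5.83% and 16.3% of all genes. The lower counts lie above those shares. This was not tested, and the lists were chosen with earlier results of these data known. The counts without overlap also include genes within background. Among the higher these were for example Fer2, ase and acj6, under the limit on all arrays. Among the lower was zfh2, with means of 2.66 in homozygotes and 2.90 in heterozygotes.

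**Figure D4:**
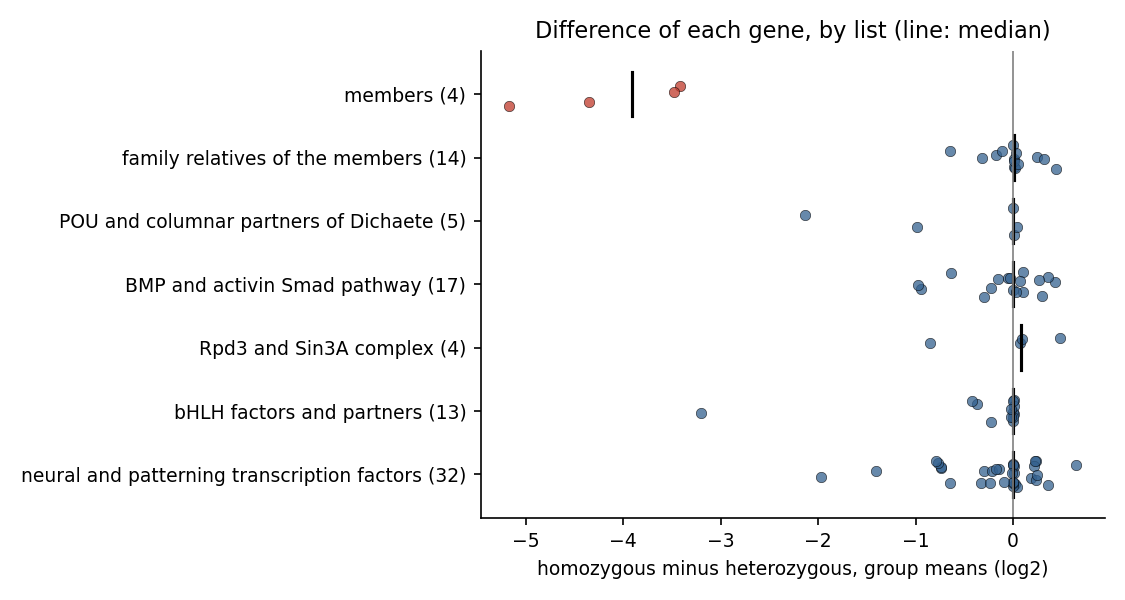
Difference of group means, homozygous minus heterozygous on the log2 scale (x axis), for the 4 genes (red) and for each gene of the 6 lists (blue, number on the array in brackets), with a line at the median of each row. The medians of the lists lie between 0.00 and 0.08, with tap at -3.20, nub at -2.13 and ss at -1.97 as the points farthest to the left in theirs.

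The 4 genes do not lie on the chromosome arm of Poxn. Poxn is on 2R, D on 3L, grn and Fer1 on 3R, and fuss on 4. Of the 3 annotated genes on each side of each gene, 24 in all, 12 had a probe set of their own. By limma 0 of these were called lower or higher, against 0.442% and 0.0751% of all genes. Of the 12, 1 was lower and 2 were higher without overlap, against 5.83% and 16.3% of all genes. These counts are close to those shares, and the median difference of the 12 was 0.00. The single one that was lower without overlap was CheA84a, the third gene beyond grn, of a family of secreted proteins of chemosensory organs. It was at 2.39, 2.42 and 2.43 in homozygous replicates 1, 2 and 3, against 3.96, 2.91 and 3.94 in heterozygous replicates 1, 2 and 3, which is close to background throughout (difference -1.19, limma adjusted p = 0.410). Without heterozygous replicate 2, its lowest heterozygous array, it was called lower (limma adjusted p = 0.00742, difference -1.53).

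Both Sox genes near D, Sox21a and Sox21b, lay under the limit on all arrays, as did nan, a channel subunit of hearing. nan was nevertheless counted as higher without overlap, with means of 2.38 in homozygotes and 2.15 in heterozygotes, both within background. The next gene, nuf, which acts in endosome recycling, was at 11.73 ± 0.13 in homozygotes and 11.82 ± 0.13 in heterozygotes. saturn was at 3.90 in homozygous replicate 1 and under the limit on the other 5 arrays. Beside fuss, 4E-T, a translation repressor, was at 10.48 ± 0.53 in homozygotes and 10.61 ± 0.41 in heterozygotes. toy, a Pax6 gene of eye development, was above the limit on homozygous replicate 2 alone, at 4.05. Beside Fer1, CG2656 was at 8.88 ± 0.34 in homozygotes and 8.45 ± 0.15 in heterozygotes (limma adjusted p = 0.611), and CG31493 and CG14610 lay under the limit on all arrays. lncRNA:CR43302, next to grn, also lay under it. The neighbours with signal therefore differed by 0.43 or less in either direction, apart from CheA84a.

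**Figure D5:**
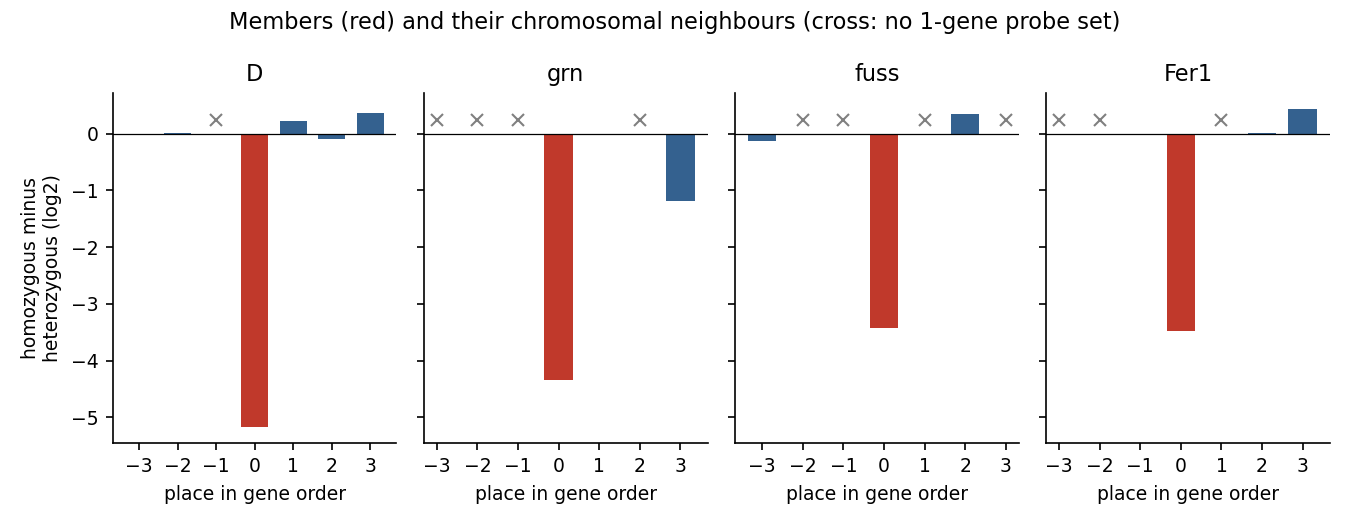
Difference of group means, homozygous minus heterozygous on the log2 scale (y axis), for each of the 4 genes (red bar at place 0) and for the 3 genes on each side in gene order (blue bars, crosses for genes with no probe set of their own). Bars of neighbours lie between -1.19 and 0.43, against -5.17 to -3.42 for the 4 genes.

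Genes with the most similar profile were sought by Pearson's r over the 6 arrays, among 7043 genes that reached 5 on at least 1 array. The arrays form 2 separate clusters, the genotypes, so r mostly reflects that split and is a description of likeness only. An r of 0.95 or more was reached by 113 genes for D (1.60%), 102 for grn (1.45%), 87 for fuss (1.24%) and 102 for Fer1 (1.45%). The 4 genes had r from 0.962 (D and grn) to 0.993 (fuss and Fer1) among themselves.

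The genes most like D were CG14313, CG42326, Obp18a and CG15036, at 0.995 to 0.997. Obp18a, an odorant-binding protein, was at 10.76 ± 0.23 in homozygotes and 13.88 ± 0.09 in heterozygotes. Those most like grn were Ir25a, Cyp6a17, Snmp2 and CG42329, at 0.995 to 0.998. Ir25a, a co-receptor of many chemosensory neurons, was at 6.12, 6.64 and 6.70 in homozygous replicates 1, 2 and 3, against 9.78, 10.21 and 10.48 in heterozygous replicates 1, 2 and 3. It had the same order of arrays as grn in both genotypes, which picking by r made likely. Snmp2, a CD36-family membrane protein, was at 8.69 ± 0.46 in homozygotes and 11.71 ± 0.14 in heterozygotes.

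Those most like fuss were CG6765, Top3alpha, Gr93a and CG30271, at 0.994 to 0.996. Gr93a, a bitter receptor needed for the taste of caffeine, had values of 2.25, 2.21 and 2.26 in homozygous replicates 1, 2 and 3, against 5.64, 5.17 and 5.05 in heterozygous replicates 1, 2 and 3. As for fuss, all 3 homozygous values were under the limit and heterozygous replicate 1 was the highest. Picking by r made a shared order of arrays likely. CG6765 and Top3alpha, which came before Gr93a, lay above the limit on all arrays and differed by -1.34 and -1.52. Those most like Fer1 were CG30271, CG14518, CG6290 and CG15036, at 0.994 to 0.999. CG30271 was among the closest for both fuss and Fer1, at 7.71 ± 0.36 in homozygotes and 10.34 ± 0.26 in heterozygotes, and CG15036 for both D and Fer1.

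Markers of cell types in the proboscis differed between the genotypes to different degrees. In bulk tissue, fewer cells of a type and less RNA per cell cannot be told apart. Over all genes 0.442% were called lower and 0.0751% higher, and 5.83% were lower and 16.3% higher without overlap. Of the 4 bitter taste neuron markers, 4 had lower homozygous means and 3 (Gr66a, Gr33a and Gr32a) were called lower by limma, with adjusted p of 0.0381, 0.0192 and 0.0176, while Gr89a lay under the limit on all arrays. These 3 calls, like all others, ended with the replicate block (limma adjusted p = 0.267 to 0.268), but were made with the block once the dimmer 50% of probe sets were left out (0.0205 to 0.0207). They also ended without homozygous replicate 3 or without heterozygous replicate 2 (0.0868 to 0.241), and without both arrays numbered 1 (0.0577 to 0.110). The call of Gr66a ended without the intensity trend (0.0703). Leaving out homozygous replicate 2 ended the calls of Gr66a and Gr32a (0.0990 and 0.0986), heterozygous replicate 1 those of Gr66a and Gr33a (0.142 and 0.0699), and heterozygous replicate 3 the same pair (0.213 and 0.128). The summed linear signal of all 4 bitter taste neuron markers was 21 to 44 in homozygotes and 848 to 1408 in heterozygotes. Gr32a and Gr89a lay under the limit on all homozygous arrays, so the homozygous sum is in part background. Of 9 general neuron markers 8 had lower homozygous means, 2 were lower without overlap and 0 were called, and their median difference was -0.22. Their summed linear signal was 2569 to 3835 in homozygotes and 4465 to 4904 in heterozygotes, but without Appl, a neuronal membrane protein, the sums overlapped (1717 to 2533 in homozygotes and 2240 to 2548 in heterozygotes). Both brp and para lay under the limit on all arrays.

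The 4 blood cell markers had higher homozygous means, 3 of them without overlap (against 16.3% of all genes) and 0 called. Their summed linear signal was 3561 to 3846 in homozygotes and 1815 to 2284 in heterozygotes. The 4 glial, 5 muscle and 4 fat body markers on the array had 0 calls, and their summed signals overlapped between the genotypes. The fat body sum came almost wholly from apolpp, at 14.11 ± 0.13 in homozygotes and 14.07 ± 0.21 in heterozygotes. Of the 4 fat body markers 0 had lower homozygous means. Lsp2 and fit were higher without overlap, Lsp2 within background and fit close to it (3.07 in homozygotes and 2.26 in heterozygotes). The part of these cell types in the differences of D, grn, fuss and Fer1 was not tested.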

How the data were processed

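Total RNA of dissected proboscises was amplified in 2 rounds into biotinylated cRNA and hybridised to 1-colour arrays, per the labels' protocols. The authors deposited 1 log2 value per probe set and array, computed with GCRMA, per the submitters' processing notes. Its version is not given in these sources, and the values themselves show the log2 scale (array medians of 2.78 to 2.92). Of 18952 probe sets 183 array controls were left out, and 13647 of the 18769 tested matched 1 gene in the platform annotation. Symbols, chromosome arms and gene order were taken from RefSeq (fly assembly Release 6 plus ISO1 MT), and no coordinates are given since the values name no build.

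Differences were tested with lmFit and eBayes with an intensity trend (limma 3.58.1, R 4.3.3) over all 18769 probe sets, p-values adjusted by Benjamini-Hochberg (threshold 0.05), and the fit was tested on simulated data. The simulation had independent noise and changes in bright probe sets alone. It therefore does not cover changes near background or an effect of the replicate number. Each gene was represented by its brightest 1-gene probe set. Summed linear signals add 2 to the power of the log2 values. The 4 genes, the gene lists and the limit of 3 were chosen with earlier results of these data known. Named were the 4 genes, up to 3 genes of each list by smallest unadjusted p, the neighbours in gene order and the 4 most similar profiles. The text says where a gene was named in another way. Markers are named to complete a count.

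Both genotypes have replicates numbered 1 to 3, without a stated link between equal numbers. The deviations of same-numbered arrays from their group means correlated at 0.372, 0.288 and 0.142 for numbers 1, 2 and 3. Homozygous replicate 3 correlated higher with heterozygous replicate 2 (0.275), and homozygous replicate 2 with heterozygous replicate 3 at 0.129, so a pairing is uncertain. The tests above are unpaired, and values with the number as a block are given where they change a call.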

Additional observations from a re-analysis of the deposited data

How the results depend on the processing

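Over the 16 alternatives the differences ran from -5.50 to -4.95 for D, -4.57 to -4.11 for grn, -3.62 to -3.11 for fuss and -3.63 to -3.26 for Fer1. The genes were picked for their decrease in these arrays, and the blocks, the variance model and the filter cannot move a balanced difference of means, so the kept direction is no sign of stability. The alternative that chose probe sets by the largest SD took the same probe set for each of the genes. The range for Fer1 therefore leaves out its other probe set, at -0.69. The count of probe sets called, 59 lower and 11 higher, depended on the settings. Leaving out 1 array gave 6 to 54 lower and 0 to 12 higher, with 12, 6, 39, 6 and 14 lower without homozygous replicates 2 and 3 and heterozygous replicates 1, 2 and 3 in that order. Under the replicate block limma made 0 calls lower and 0 higher, and at an unadjusted p under 0.05 it gave 508 genes lower and 1121 higher. The block without the dimmer 50% of probe sets, an added alternative picked with the data in view, gave 74 lower and 18 higher. The number as a random block gave 117 lower and 50 higher, the fit without an intensity trend 35 lower, the fit without the dimmer 50% of probe sets 123 lower and 33 higher, median-centred arrays 117 lower and 35 higher, and values under 3 set to 3 gave 7 higher. Leaving out both arrays numbered 1, also added in that way, gave 9 lower and 0 higher. The cause of these shifts was not tested, apart from the fewer arrays or probe sets in some fits.

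Calls in the lists changed for 3 genes, all lower. nub was called with median-centred arrays, so its list had 1 call. tap was called in 4 settings (without heterozygous replicate 1, with the random block, without the dimmer 50% and with median-centred arrays), so the bHLH list had 0 to 1 calls when 1 array was left out and 1 in each of the others. ss was called with the random block, without the dimmer 50%, with median-centred arrays and with the block without the dimmer 50%, 1 call in its list each time. The replicate block alone changed no call in a list. Values near 3 are limited by the background band, so the size of the decreases of D, fuss and Fer1 is less well measured than that of grn.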
